A study of Mus musculus with 2 samples.

Results

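The Bcl2 family genes decide, through the proteins they encode, whether a cell under stress opens its mitochondria and dies by apoptosis. Here 10 of them, chosen by name from the 22605 genes of the deposited DNase I hypersensitivity (DHS-seq) table, are described: Bcl2, Bcl2l1, Bcl2l2, Mcl1, Bax, Bak1, Bcl2l11, Bad, Bid and Bik. The rule used names and no measured value, although earlier results of these data were known when the genes were chosen. Where several transcripts of a gene were listed, the one with the most windows stands for the gene, and the 10 genes had 36 listed transcripts in all.

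The pro-survival members (Bcl2, Bcl2l1, Bcl2l2 and Mcl1) hold the effectors Bax and Bak1 in check. The BH3-only members (Bcl2l11, Bad, Bid and Bik) carry stress signals and bind either the pro-survival proteins or the effectors, which then form pores in the outer mitochondrial membrane and release cytochrome c. In myeloid progenitors the balance between these groups sets survival during growth factor withdrawal and differentiation, and Mcl1 is known as a short-lived protein on which many myeloid cells depend.

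M1 is a mouse myeloid leukemia line of progenitor type, and the labels give bone marrow as its source. The cytokine interleukin-6 (IL-6) makes it differentiate toward macrophages. 1 library came from untreated M1 cells, and 1 came from M1 cells kept in IL-6 for 4 to 5 days. Both came from the same line, with no genetic change given in the labels, so they describe 1 leukemia line and not normal bone marrow. Nuclei were lightly digested with DNase I, which cuts accessible chromatin first, and the short fragments were sequenced. Hypersensitivity of a gene is therefore a measure of open chromatin and not of its RNA. In a bulk library, a change within each cell and a change in the share of cells of a type cannot be told apart.

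For each transcript the table gives the mean and SD of signal over windows of 700 bp, from the one with the start codon to the one with the stop codon (the coding span). The numbers of reads behind each mean were recovered as whole numbers, with 1 read worth 1.0 in untreated cells and 1.03816 in the scaling deposited for IL-6-treated cells. Non-overlapping coding spans held 9115986 reads in untreated cells (7.58 per window) and 8557991 reads after IL-6 (7.12 per window). There is 1 library per condition, so no difference has a replicate check and no test between conditions was made. Ratios are given as IL-6-treated over untreated, on the deposited scaling, with 95% Clopper-Pearson intervals. These cover counting error only, compare the 2 libraries and not the conditions, and treat reads as independent molecules, although no molecular identifiers are described. Single reads are given in one place of the study and paired ends in another, and if both mates of a fragment were counted the intervals would be too narrow. Before log2 ratios were taken, 0.5 reads were added to both counts. A gene is said to have fallen or risen where the interval of its ratio excludes 1. Of the marker genes, the myeloid progenitor list had summed means of 132 and 79.0 reads per window in untreated and IL-6-treated cells, and the macrophage list 232 and 85.5. All 7 listed genes of each had signal in both libraries, and no gene of the erythroid, T cell or B cell lists was at 0 either. Signal at these genes therefore did not check the identity of the cells. Gapdh, a constitutive glycolysis gene, went from 72.7 to 17.1 scaled reads per window (ratio 0.236), and Myb, the gene of the study, from 14.1 to 7.33 (ratio 0.518).

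Mcl1 and Bax were the members whose hypersensitivity fell by at least 2-fold, and both have their annotated transcription start inside the listed windows. The 250 bases before each start are shown, since they lie wholly or partly in the listed windows of these genes. They were read from NCBIM37 5′ to 3′ on the strand of the gene, overlap no annotated exon, and have capitals where a searched motif matched.
Bax promoter, chr7:52722269-52722518, minus strand: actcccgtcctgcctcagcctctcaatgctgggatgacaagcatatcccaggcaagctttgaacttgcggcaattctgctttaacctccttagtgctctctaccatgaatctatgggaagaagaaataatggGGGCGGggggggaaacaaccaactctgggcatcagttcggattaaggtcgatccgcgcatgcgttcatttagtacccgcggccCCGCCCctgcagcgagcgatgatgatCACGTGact
Mcl1 promoter, chr3:95462393-95462642, plus strand: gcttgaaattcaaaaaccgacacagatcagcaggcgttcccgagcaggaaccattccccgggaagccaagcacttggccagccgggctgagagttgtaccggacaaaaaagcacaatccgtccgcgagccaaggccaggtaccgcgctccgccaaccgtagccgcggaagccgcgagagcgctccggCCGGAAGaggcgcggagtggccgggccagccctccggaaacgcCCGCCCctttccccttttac
All 250 bases of the Bax promoter lie in the single window that held most of the reads of the gene in untreated cells (58.3%, and 45.0% after IL-6), and 142 bases of the Mcl1 promoter lie in its listed windows. The Bax promoter is 54% GC with 14 CpG dinucleotides and the Mcl1 promoter 64.4% GC with 26. In the Bax promoter the capitals mark a GC box (GGGCGG) that begins 118 bp upstream of the start, another on the opposite strand at 35 bp, and an E-box (CACGTG) at 9 bp. In Mcl1 they mark an ETS motif (CCGGAAG) at 63 bp and a GC box on the opposite strand at 20 bp. Among 22350 gene promoters of the same length a GC box was found on either strand in 39.6%, this E-box in 6.52% and this ETS motif in 8.23%. Across the promoters of the members a GC box was found in 9 of 10, all but Bcl2l1. The STAT motif (TTCNNNGAA), searched since IL-6 signals through STAT3, was found in 0 of 10 and in 6.83% of all promoters. CCAAT, TGACGTCA and TATAAA, the other motifs searched, were in neither printed promoter. CCAAT was found in Bcl2l11 and Bik, and in 35.0% of all promoters. TGACGTCA and TATAAA were found in no member and in 1.91% and 12.3% of all promoters. These matches describe letters, not bound sites.

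**Figure D1:**
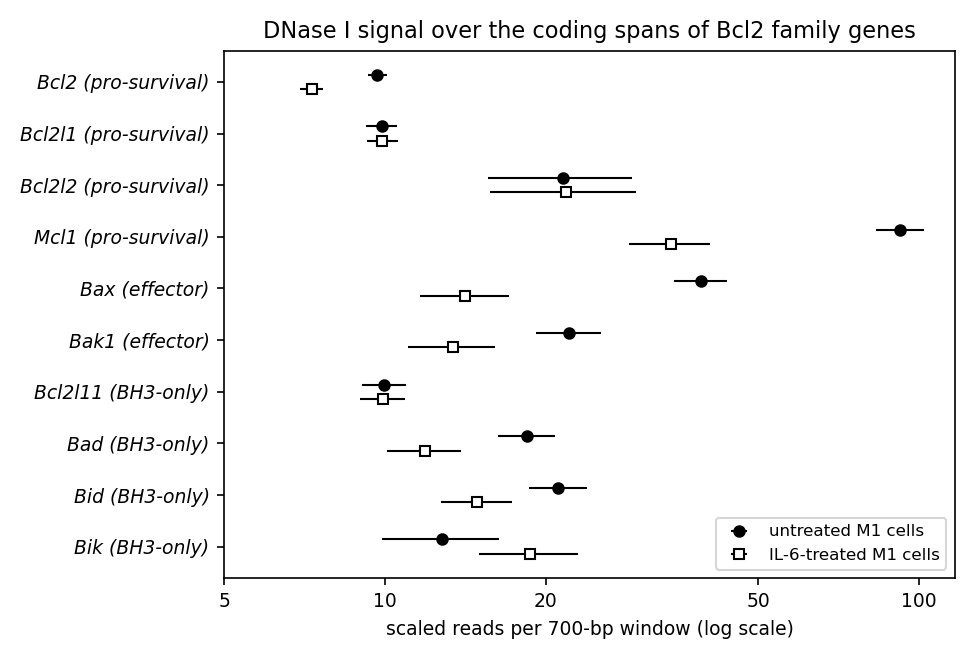
Mean hypersensitivity of the 10 members in untreated and IL-6-treated M1 cells, in scaled reads per 700-bp window on a log axis, with 1 library per condition and bars for the exact Poisson 95% interval of the mean (counting error only). Mcl1 was highest in both libraries, at 92.0 and 34.3, and Bcl2 was lowest in both, at 9.67 and 7.28.

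Hypersensitivity of the pro-survival genes differed widely. Mcl1, which protects cells by sequestering Bak1 and the BH3-only proteins, is a plus-strand gene with windows at 95462501 to 95465300 of chromosome 3. Its 4 windows held 368 reads in untreated cells and 132 after IL-6, means of 92.0 and 34.3 scaled reads per window. Its signal was thus higher than that of any other member in both libraries and fell by more than 2-fold, to 0.372 (0.303 to 0.456) of the untreated level, which is −1.42 on the log2 scale. The mean of Mcl1 stood at percentile 98.2 of all genes with reads in untreated cells and at 98.6 after IL-6, so its place among genes barely moved. The start of Mcl1, at 95462643, is 136 bp from its start codon. Its strongest window held 247 to 255 reads in untreated cells and 65 to 85 after IL-6, the bounds that the mean and SD allow. Most reads of the gene thus lay in 1 window in untreated cells, although the table does not say which of the 4 it was.

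Bcl2, the founding member of the family, had the lowest mean of the 10 in both libraries. This minus-strand gene spans 243 windows of chromosome 1 (108439801 to 108609900), most of them intronic. It held 2349 reads in untreated cells and 1705 after IL-6, which comes to 9.67 and 7.28 scaled reads per window. The decrease, with a ratio of 0.754 (0.708 to 0.802), was smaller than 2-fold, and its interval lay below 1. The SD between windows of Bcl2 fell from 18.1 to 6.67 scaled reads, a larger relative change than in its mean. The bounds of its strongest window (44 to 290 reads in untreated cells, 13 to 106 after IL-6) overlap, so the table does not show whether a single site was lost. Windows at the 3′ end of Bcl2 also overlap D630008O14Rik, an annotated gene on the plus strand (108438520 to 108471622).

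Bcl2l1, which encodes the protective protein Bcl-xL, held 887 reads in untreated cells and 857 after IL-6 over 90 windows of chromosome 2 (152593001 to 152656000, minus strand). The means of 9.86 and 9.89 scaled reads per window gave a ratio of 1.00, and its interval of 0.912 to 1.10 holds small changes in either direction. The gene was not uniform, however. The 21 windows at its 3′ end went from 226 to 163 reads, which is 0.749 (0.608 to 0.920) of the untreated level. They also hold the start of another gene on the same strand, AL731857.1. The 67 windows in the middle went from 646 to 672, a ratio of 1.08 (0.968 to 1.20).

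Bcl2l2, which encodes the protective protein Bcl-w, has only 2 windows, on chromosome 14 from 55503001 to 55504400. It held 43 reads in untreated cells (26 and 17 in the single windows) and 42 after IL-6 (26 and 16). The ratio of 1.01 had the wide interval of 0.647 to 1.59, so that neither a decrease nor an increase of moderate size could be detected at this depth. Both windows also belong to Gm20521, a longer annotated gene on the same strand whose 20 windows went from 1510 to 434 reads (ratio 0.298). Reads in the shared windows cannot be assigned to either gene.

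Both effectors fell. Bax, whose protein moves from the cytosol to mitochondria and forms pores there, held 312 reads in untreated cells and 109 after IL-6 over 8 windows of chromosome 7 (52717001 to 52722600, minus strand). Its mean went from 39.0 to 14.1 scaled reads per window, which is a ratio of 0.363 (0.289 to 0.452). On the log2 scale this was −1.46, the lowest value of the 10 members. Bax stood at percentile 93.6 of gene means in untreated cells and at 80.8 after IL-6. It ranked 2, after Mcl1, in untreated cells, with an interval above that of the next member, and ranked 5 after IL-6, where its interval overlapped those of its neighbors.

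Bak1, the effector that resides on mitochondria, held 199 reads in untreated cells and 116 after IL-6 over 9 windows of chromosome 17 (27157201 to 27163500, minus strand). The means were 22.1 and 13.4 scaled reads per window, with a ratio of 0.605 (0.477 to 0.765). Its decrease was smaller than that of Bax, and the intervals of the ratios of Bax and Bak1 did not overlap. The 9 windows lie within the coding span of Ggnbp1, a gene on the opposite strand whose 27 windows went from 579 to 303 reads (ratio 0.543). DNase I reads do not tell the genes apart.

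Of the BH3-only genes, Bad and Bid fell, Bik rose and Bcl2l11 had nearly equal values in both libraries. Bad, whose protein binds Bcl2 and Bcl-xL when growth factor signaling stops, held 258 and 160 reads in untreated and IL-6-treated cells over 14 windows of chromosome 19 (7016801 to 7026600, plus strand). Its ratio was 0.644 (0.525 to 0.787). The first window also holds the start of the neighboring gene Gpr137 at 7016940, on the other strand. Bid, which links death receptors to mitochondria once it is cleaved by a caspase, held 253 and 172 reads over 12 windows of chromosome 6 (120843801 to 120852200, minus strand), a ratio of 0.706 (0.578 to 0.860). Both had higher signal than the typical gene in each library, at percentiles 71.8 to 85.2.

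Bik, one of the first BH3-only genes to be identified, was the member whose signal was higher after IL-6. Its 5 windows on chromosome 15 (83371401 to 83374900, plus strand) held 64 reads in untreated cells and 90 after IL-6, means of 12.8 and 18.7 scaled reads per window. The ratio was 1.46 (1.05 to 2.04), so the interval lay just above 1. Bik moved from percentile 70.8 to percentile 90.7 of gene means, and from rank 7 to rank 3 among the members. In untreated cells its strongest window held 15 to 20 reads, against 20 to 26 after IL-6, so the table gives no single dominant window in either library.

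Bcl2l11, which encodes Bim, a strong activator of cell death in blood cells, held 439 reads in untreated cells and 420 after IL-6 over 44 windows of chromosome 2 (127953701 to 127984500, plus strand). The means were 9.98 and 9.91 scaled reads per window, a ratio of 0.993 (0.867 to 1.14). Of the 32 reads in its first 3 windows in untreated cells, 30 lay in 1 window, whereas after IL-6 the 21 reads there fell into windows of 11, 7 and 3 reads. The ratio of these 3 windows, 0.681, had an interval of 0.373 to 1.22.

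**Figure D2:**
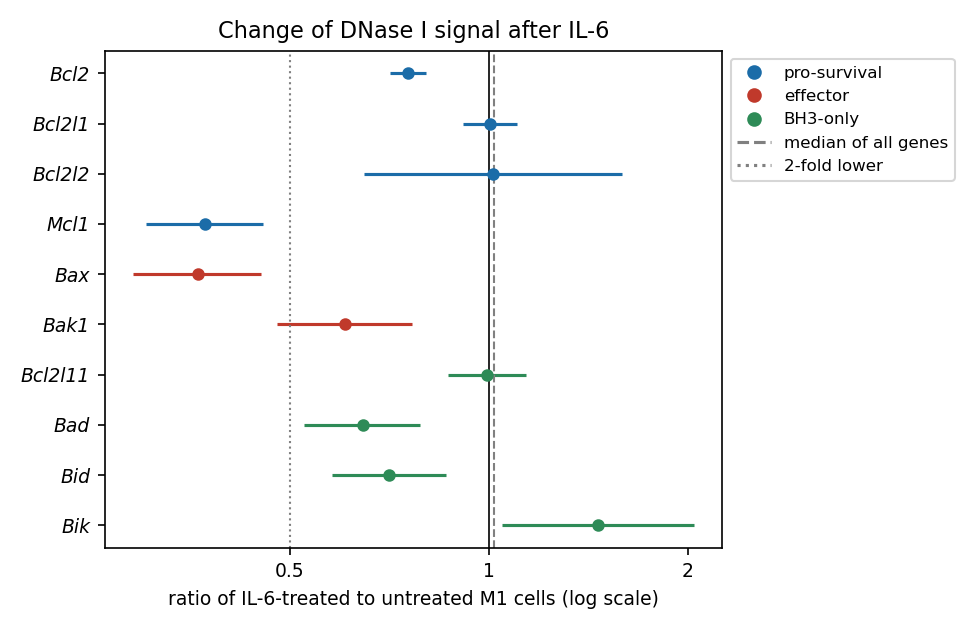
Ratio of signal, IL-6-treated over untreated, on a log axis for each member with its 95% Clopper-Pearson interval (counting error only). The interval lies below 1 in 6 members, holds 1 in 3 members and lies above 1 in 1 member, Bik.

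Counted together, 2 of the 10 members (20%) were at least 2-fold lower after IL-6, where 13.5% of all 18406 genes compared were. A gene was compared if it had more than 21 reads in either library, which all 10 members had. 0 members were at least 2-fold higher, beside 1.71% of all genes. The interval of the ratio lay below 1 in 6 members (60%), beside 34.5% of all genes, and above 1 in 1 member (10%), beside 29.0%. The share at least 2-fold lower was thus near that of all genes, and among 10 members each gene is 10%. The median log2 ratio was −0.45 over the members and 0.03 over all genes compared. By role the medians were −0.20 for the 4 pro-survival genes, −1.09 for the 2 effectors and −0.26 for the 4 BH3-only genes. Genes that fell and genes with nearly equal values were found among both the pro-survival and the BH3-only genes.

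The differences in level between members narrowed. The highest mean was 9.52 times the lowest in untreated cells and 4.70 times after IL-6. In untreated cells the order ran Mcl1, Bax, Bak1, Bcl2l2, Bid, Bad, Bik, Bcl2l11, Bcl2l1 and Bcl2. From Bak1 on, each overlapped the next within the Poisson interval of its mean. After IL-6 the order was Mcl1, Bcl2l2, Bik, Bid, Bax, Bak1, Bad, Bcl2l11, Bcl2l1 and Bcl2. Of these only Bcl2 lay below the interval of its neighbor without overlap. All 10 means were above the median of all genes with reads (8 reads per window) in untreated cells, and 9 were above it (8.31) after IL-6.

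Within the genes, signal became more even. The CV between windows, which is the SD over the mean, was lower after IL-6 in 9 members, all but Bcl2l2, and the SD was lower in 8. Among 18254 genes with more than 1 window, the CV was lower after IL-6 in 83.0% and the SD in 63.1%, and the median CV went from 0.952 to 0.703, so the members did as most genes. These SDs are between windows of 1 library and are not replicate error. A window with more than 21 reads was present for certain in 9 members in untreated cells and absent for certain in 1, Bik. After IL-6 one with more than 21 scaled reads was present for certain in 5 and absent for certain in 0. The bounds thus do not show that such windows were lost. The bounds of the strongest window in untreated cells lay wholly above those after IL-6 in Mcl1, Bax, Bak1, Bad and Bid.

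Transcripts that begin or end at different windows separate the 5′ end of some members from the rest. In Bax, the window at the 5′ end (52721901 to 52722600), which holds the whole promoter sequence printed for it and the start of the gene at 52722268, went from 182 to 49 reads. This ratio of 0.280 (0.1996 to 0.385) was lower than the 0.479 (0.347 to 0.655) of the other 7 windows, which went from 130 to 60 reads, though the intervals overlap. The 5′ window held 58.3% of the reads of Bax in untreated cells and 45.0% after IL-6. Both stretches fell, with the greater part of the lost reads in the promoter window.

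In Bid the decrease lay in the 3 windows at the 5′ end of the coding span (120850101 to 120852200). They went from 119 to 49 reads, a ratio of 0.427 (0.300 to 0.601), while the other 9 windows went from 134 to 123, a ratio of 0.953 (0.740 to 1.23). These intervals do not overlap. A single window with 93 reads accounted for most of the 5′ signal in untreated cells, and the strongest of the 3 after IL-6 held 24 to 27. No annotated transcription start of Bid or of another gene lies in these 3 windows, since the gene begins 15.1 kb upstream of its start codon, outside the listed windows.

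Signal of Bak1 was also concentrated at the 5′ end of its coding span, with 84.9% of reads in 5 of 9 windows (27160001 to 27163500) in untreated cells and 77.6% after IL-6. There it went from 169 to 90 reads, a ratio of 0.553 (0.423 to 0.718). The other 4 windows went from 30 to 26 reads, a ratio of 0.900 (0.511 to 1.57), whose interval overlaps. As in Bid, no annotated start lies in the 5′ stretch, and the gene begins 3.15 kb upstream of the start codon. In Bad, 12 of 14 windows could not be separated further and went from 237 to 144 reads (ratio 0.631, 0.509 to 0.779).

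**Figure D3:**
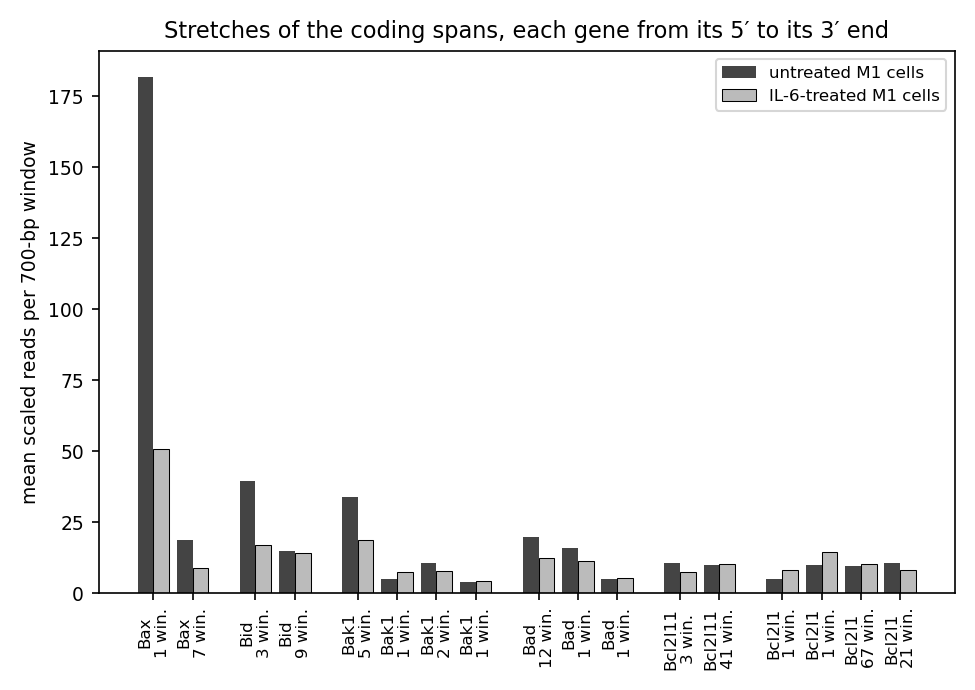
Scaled reads per window in the separate stretches of members, from the 5′ end of the coding span, in untreated and IL-6-treated M1 cells. The single promoter window of Bax (182 to 50.9) and the first 3 windows of Bid (39.7 to 17.0) had lower ratios than the rest of the same gene. The intervals of the ratios overlap in Bax and do not overlap in Bid.

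Across all genes the ratio moved with the amount of signal, so each member was placed among genes of similar summed signal (both means added). Among genes with 10 to 20 scaled reads per window, the median log2 ratio was 0.17 and 2.73% were at least 2-fold lower. At 20 to 40 the median was −0.11 (10.4% lower), at 40 to 80 it was −0.94 (46.7% lower) and at 80 or more it was −1.76 (93.2% lower). The decrease of Mcl1 (−1.42) was therefore smaller than the median of the 769 genes in its range, and that of Bax (−1.46) larger than the median of the 2016 genes in its range. Bcl2l2, in the same range as Bax, stood at 0.02, above that median of −0.94. All 10 members lay between percentiles 5 and 95 of their ranges, 7 below the median and 3 (Mcl1, Bcl2l2 and Bik) above it. The sum that defines the ranges contains the values of the ratio, and the edges were chosen after the values were seen, so this is a description.

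**Figure D4:**
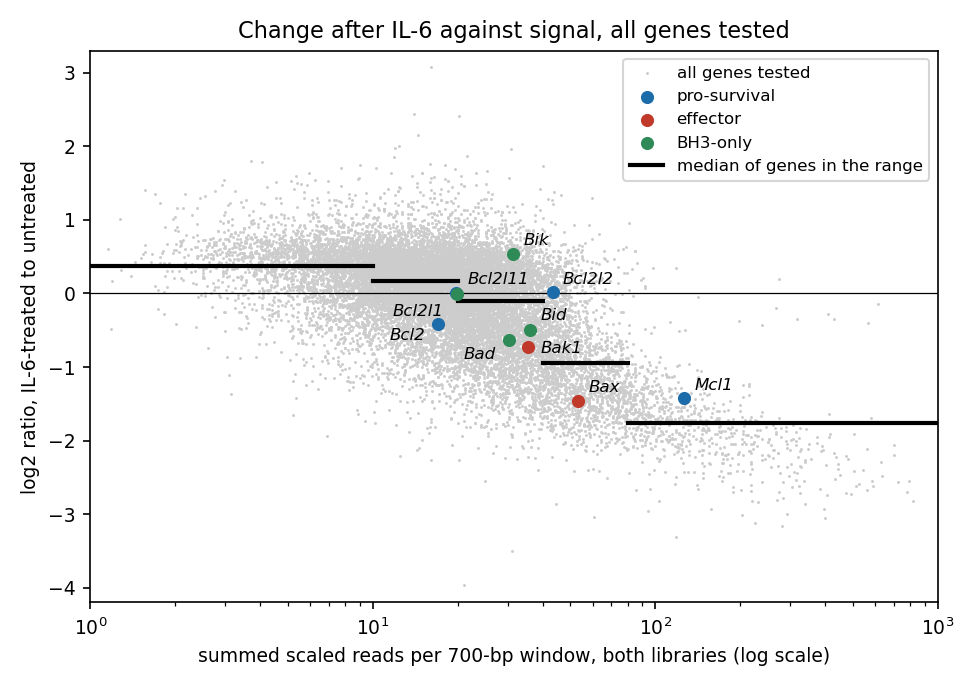
Log2 ratio against summed signal (both on log scales) for all genes compared, except 24 with a sum outside 1 to 1000, with the median of each range as a bar and the members named. Members lie within the cloud of genes of similar signal, with Mcl1 above and Bax below the median of its range.

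Whether the annotated 5′ end of a gene lay in its windows went with the ratio as well. It did so in Bax and Mcl1, both at least 2-fold lower, and in none of the other 8 members, of which 0 were 2-fold lower and whose median log2 ratio was −0.21. Over all genes compared, 20.2% of 9110 with their 5′ end in the windows were at least 2-fold lower (median log2 ratio −0.15), against 7.02% of 9296 without (median 0.12). What lies outside the windows in those 8 is the outermost annotated start. Bad begins 462 bp upstream of the start codon, yet 4 of its 5 coding transcripts start within the windows, and in Bak1 1 of 5 does. Base composition of the windows ranged from 42.9% GC in Bcl2 to 55.4% in Bcl2l2, with a median of 45.6% over all genes, and Mcl1 was richest in CpG at 6.11 per 100 bases, where the median gene had 1.20.

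Other apoptosis genes were taken from a list of 43 and not chosen for how they moved, although earlier results of these data were known. Of the 41 with enough reads to compare, 10 (24.4%, beside 13.5% of all genes) were at least 2-fold lower after IL-6 and 0 were 2-fold higher (beside 1.71%), with a median log2 ratio of −0.49. The interval lay below 1 in 19 (46.3%, beside 34.5%), above 1 in 5 (12.2%, beside 29.0%) and held 1 in 17. By group, 5 of 14 other Bcl2 family genes were 2-fold lower, with a median of −0.57, and 4 of 10 genes of the mitochondrial pathway, with a median of −0.82. Of these, Cycs (23 to 11 reads) and Bcl2a1d (51 to 18) exceeded 21 reads only in untreated cells, where they were higher, and the interval of Cycs (0.219 to 1.06) held 1. Bcl2a1b and Bcl2a1d, both counted among the 5 and the 10, are copies of nearly the same sequence whose read placement is uncertain. Among the 8 genes of the death receptor pathway 1 was lower (median −0.09), and 0 of 6 inhibitors of apoptosis (median −0.24) and 0 of 3 effector caspases (median 0.23). 15 of these genes had their 5′ end in the windows, of which 6 (40%) were 2-fold lower, against 4 of 26 (15.4%) without, beside 20.2% and 7.02% of all genes.

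Among the BH3-only genes of the list, Bmf, Bbc3 and Pmaip1 fell. Bmf, whose protein responds to loss of attachment, went from 802 to 341 reads (ratio 0.441). Bbc3, which encodes the p53 target Puma, went from 237 to 100 (ratio 0.438), and Pmaip1, which encodes Noxa, the partner of Mcl1, from 80 to 32 (ratio 0.415). Hrk had 8 and 2 reads and was too low to compare. The log2 ratios of Bmf, Bbc3 and Pmaip1, −1.18, −1.19 and −1.25, were lower than those of the 4 BH3-only members. The interval of the ratio of Bmf (0.388 to 0.502) lay below those of all 4. Those of Bbc3 (0.343 to 0.556) and Pmaip1 (0.267 to 0.633) overlapped that of Bad, and that of Pmaip1 also that of Bid. With its transcript of fewest windows, Bid stood at −1.22.

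Elsewhere in the family, Bok, an effector relative, held 155 reads in both libraries (log2 ratio 0.05). Bcl2l12, Bcl2l13, Bcl2l14 and Bcl2l15 had log2 ratios of −0.61, 0.20, 0.20 and −0.72, and Bnip3 and Bnip3l, BH3-type genes that act in mitochondrial clearance, 0.06 and −0.17. The intervals of the ratios of Bnip3 (0.832 to 1.31) and Bnip3l (0.763 to 1.04) held 1. The Bcl2a1 genes, pro-survival copies of nearly the same sequence, are uncertain, since how reads with several matches were placed is not stated. Their log2 ratios were −0.54 in Bcl2a1a, −1.46 in Bcl2a1b (98 to 34 reads, in windows shared with Mthfs) and −1.42 in Bcl2a1d, and Bcl2a1c had 9 and 18 reads and was too low to compare.

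The lowest ratios of the list were those of Htra2, a mitochondrial protease (671 to 145 reads, log2 ratio −2.15), Endog, a mitochondrial nuclease (383 to 103, −1.84, in windows shared with D2Wsu81e), and Bcl2a1b. The highest were those of Vdac3, a channel of the outer membrane (76 to 103, 0.49), Bcl2l10, a pro-survival relative (54 to 73, 0.49), and Tnfrsf10b, a death receptor (166 to 200, 0.32). None of these reached 2-fold, and the interval of Bcl2l10 (0.974 to 2.03) held 1.

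**Figure D5:**
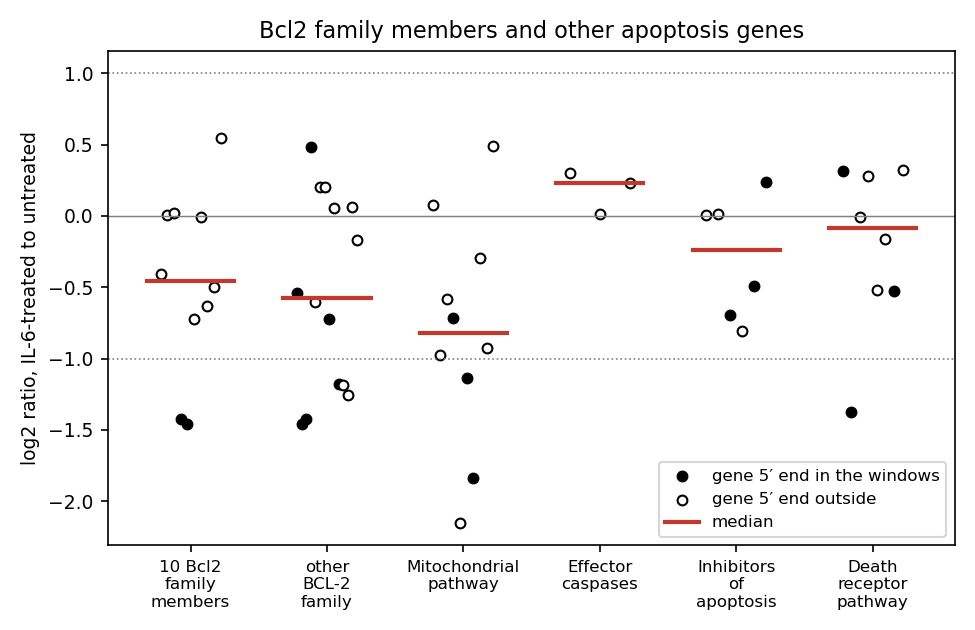
Log2 ratio, IL-6-treated over untreated, of the 10 members and of the 41 compared genes of the apoptosis list by group, with 1 point per gene (filled where the 5′ end of the gene lies in its windows), a bar at each group median and dotted lines at 2-fold. The mitochondrial pathway has the lowest median of the list groups (−0.82) and the effector caspases the highest (0.23).

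The direction of these ratios rests on the scaling between the libraries. A scaling by the median of the ratios of 518 single windows that held at least 22 reads in both libraries raised every log2 ratio by 1.85. With it all 10 members were above 0, from 0.39 in Bax to 2.39 in Bik, as were 40 of 41 genes of the list, and 15350 of 18406 genes were at least 2-fold higher while 17 were lower. Without scaling, by the total over coding spans and with the median gene set to 0, log2 ratios moved by −0.05, 0.04 and −0.03, and Bax stayed between −1.51 and −1.42. Each scaling adds the same amount to every log2 ratio, so the order of the members could not change. Bax and Mcl1 were lowest and Bik highest under each. The order did depend on the transcript chosen: with that of fewest windows, Mcl1 (−1.42) was lowest and Bcl2l1 (0.68) highest. That value of Bcl2l1 rests on 1 window with 5 reads in untreated cells and 8 after IL-6, too few for the 2-fold comparison. The interval of its ratio (0.479 to 6.45) held 1, so its place as highest is uncertain.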

How the data were processed

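DHS-seq was performed by the authors on 1 library of untreated and 1 of IL-6-treated M1 cells. Per the submitters' processing notes and the methods, reads were aligned with BWA to NCBIM37 (mm9) and summarized in Seqmonk. The aligner's version and the placing of reads with several matches are not given in the sources used here. Per transcript, the deposited signal is a mean with its SD between 700-bp windows of the coding span. A column for averages held no values and was not used. The analysis had been designed for reads on the authors' scaling, which was kept.

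Reads per span were recovered as mean times windows, divided by the worth of 1 read. In all 55432 rows the result lay within 0.01 of a whole number (at most 0.0045 away). Stretches come from subtracting transcripts of a gene, and bounds of the strongest window from sums of squares. A gene entered the 2-fold comparison if it exceeded 21 reads in at least 1 library. With 1 library per condition no p-value is given.

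The members and lists were chosen with earlier results of these data known. Named are the 10 members, the 3 lowest and 3 highest genes of the apoptosis list, its other Bcl2 family genes, Gapdh, Myb and genes sharing windows with members. The starts of Gpr137 and AL731857.1 and the overlap of D630008O14Rik were added after the values were seen. Alternatives covered scaling, reads added (5), read minimum (50 or none), a fold of 1.5 and the transcript chosen. The scripts were tested on simulated data. DNase I signal outside the listed windows is not analysed here, so promoters there are described by sequence alone. Python 3.11.15, numpy 2.4.6, pandas 2.3.3, scipy 1.17.1 and matplotlib 3.10.9 were used.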

Additional observations from a re-analysis of the deposited data

How the results depend on the processing

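Of 162 recomputed values, 126 stayed within the counting interval of the reported ratio (counts of genes, within 1.5 times). Another 31 moved further, and 5 ratios at least 2-fold lower changed sign. The total leans on settings that change little: 3 scalings with shifts of −0.05, 0.04 and −0.03 kept 32 of 32 values each, and 5 reads added kept 11 of 11. The median of ratios kept 4 of 32, the transcript of fewest windows 6 of 11. Under the median of ratios some of the 31 also changed sign, as Bcl2 (−0.41 to 1.44) and Bak1 (−0.72 to 1.12) did. All 5 sign changes of ratios at least 2-fold lower were under that scaling. There the log2 ratio was 0.42 for Mcl1, 0.39 for Bax, 0.017 for the promoter window of Bax, 0.79 for its other windows and 0.63 for the first 3 windows of Bid. The median of the members became 1.39, with 8 of them higher by 2-fold or more and 0 lower, and of the other apoptosis genes 0 were lower and 30 higher. The cause was not tested. With a fold of 1.5, 4 members and 16 of 41 other apoptosis genes were lower, beside 23.4% of all genes. With no read minimum, 1 other apoptosis gene was at least 2-fold higher (Bcl2a1c, 9 and 18 reads), beside 8.22% of all genes. At that setting 11 were lower, beside 14.8% of all genes. With the transcript of fewest windows, Bid went to −1.22, past 2-fold, Bak1 to −0.15, Bcl2l11 to −0.54, Bcl2l1 to 0.68 and Bax to −1.06. These values depend on which windows remain. Those of Bid, Bcl2l11 and Bcl2l1 (1 window with 5 and 8 reads) are of the first stretch at the 5′ end. That of Bax is of the 7 windows without the promoter window, so they repeat the stretches. The 3 other scalings, 5 reads added and more than 50 reads moved no value beyond the counting interval (counts of genes, beyond 1.5 times). No paired analysis was possible because the untreated and the treated cells gave 1 library apiece. Depth limits Bcl2l2 and Bik most, with fewer than 100 reads in each library.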
